A study of Homo sapiens with 6 samples.

Results

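The genes described here are 8 dual-specificity phosphatases of MAP kinases (DUSP1, DUSP2, DUSP4, DUSP5, DUSP6, DUSP8, DUSP10 and DUSP16) and 2 Sprouty genes (SPRY2 and SPRY4), 10 of the 18132 genes measured. They were taken by name from the platform annotation, with every probe set that carried their symbol alone, 24 probe sets in all. Transcripts were measured in Huh7, an established human hepatocellular carcinoma cell line, harvested in logarithmic growth. A group of 3 arrays came from control cells and another of 3 arrays from cells labelled KCa3.1 silenced. KCa3.1 is a calcium-activated potassium channel encoded by KCNN4. The labels name no other treatment or modification of either group, and they give neither the means of silencing nor the nature of the control. The question is what silencing the channel does to the transcripts of these cells.

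MAP kinases (ERK, JNK and p38) are switched on when a threonine and a tyrosine in their activation loop are phosphorylated, and the phosphatases of this family switch them off by removing both phosphates. Many of these phosphatases are made in response to the kinase they inactivate and so form a negative feedback loop. Sprouty proteins act further up, where they dampen signalling from receptor tyrosine kinases to RAS and ERK, and they too are induced by that signalling. In liver and hepatocellular carcinoma these genes are widely used as readouts of growth factor and stress signalling.

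Values are log2 RMA values (background-corrected, quantile-normalised and summarised by probe set) that the deposited table gives relative to a baseline for each probe set. A value of 0 therefore means the baseline, and no value says how strongly a gene was expressed or whether Huh7 cells made its transcript at all. Differences are silenced minus control, and a gene was called at a limma adjusted p under 0.05 over all genes. KCNN4 was not lower in the arrays labelled silenced. It lay at -0.01, 0.13 and -0.07 in control arrays and at -0.05, 0.09 and 0.01 in silenced-labelled arrays, a difference of -0.00033 (95% interval -0.157 to 0.156, limma adjusted p = 0.999, two-sided exact permutation p = 1 where 0.1 is the smallest possible). Its sign turned without control replicate 2 (0.05), without silenced replicates 1 (0.03) and 3 (0.0018), with quantile normalisation (0.0014) and with the most variable probe set (0.02). All 3 probe sets of KCNN4 are of a design open to cross-hybridisation, so this check rests on them and has no value from specific probe sets. Each direction given below is therefore one between arrays as labelled. Over all probe sets, which are not independent replicates, pairs of arrays with a shared label had r from 0.406 to 0.67. Pairs with opposite labels had r from -0.273 to 0.0676. Centring each probe set takes out the profile common to all arrays and so lowers r. Low r between labels is therefore in part built in. Nothing in the labels says that replicates came from separate cultures, so p-values measure the spread between these arrays, which may be technical.

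In the silenced-labelled arrays DUSP1 fell clearly, DUSP4 and DUSP10 rose slightly, and the other 7 genes did not pass the test. Thus 3 of 10 genes were called, against 13.3% of all genes, with 2 higher (7.14% of all genes) and 1 lower (6.19%). The count fell from 3 to 1, DUSP1 alone, without control replicate 1, without silenced replicate 1 or without silenced replicate 3. In those fits 12.6%, 9.89% and 9.05% of all genes were called. The median difference over the 10 genes was 0.06 on the log2 scale, against -0.0058 over all genes. At a fold change of at least 1.5 only DUSP1 was called, 1 of 10 genes against 2.51% of all genes. Control and silenced-labelled values did not overlap for 6 of the 10 genes, against 29.3% of all genes. The 10 genes therefore did not move as one group.

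**Figure D1:**
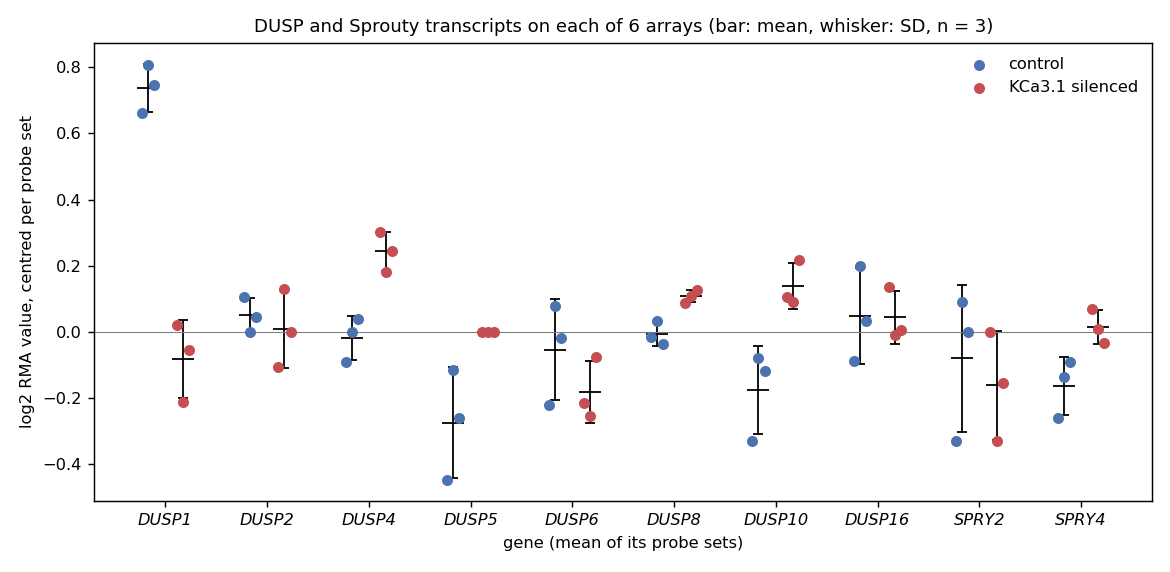
Centred log2 RMA values (vertical axis) of the 10 genes (horizontal axis) on each control and silenced-labelled array, with the mean (bar) and SD (whisker) of 3 arrays. DUSP1 is the gene whose groups lie farthest apart, with control arrays between 0.66 and 0.81 and silenced-labelled arrays between -0.21 and 0.02.

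The sequences before the start sites of DUSP1 and DUSP10 are shown because these genes moved in opposite directions. That of DUSP8, which did not pass the test, is set beside them for comparison and was chosen after its values were seen. Each is the 250 bases that precede a RefSeq transcription start (GRCh38.p14, all on the minus strand, 5′ to 3′). They lie at chr5:172771196-172771445 for DUSP1, at chr11:1572272-1572521 for DUSP8, and at chr1:221742090-221742339 and chr1:221736901-221737150 for the upstream and the downstream start of DUSP10. Capitals mark TGACG on either strand, the core of the cyclic AMP response element.
DUSP1: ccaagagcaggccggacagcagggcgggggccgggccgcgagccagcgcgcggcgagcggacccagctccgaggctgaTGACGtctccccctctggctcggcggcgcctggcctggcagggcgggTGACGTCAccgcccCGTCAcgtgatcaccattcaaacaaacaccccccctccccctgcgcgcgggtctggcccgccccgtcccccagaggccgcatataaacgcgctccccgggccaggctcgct
DUSP8: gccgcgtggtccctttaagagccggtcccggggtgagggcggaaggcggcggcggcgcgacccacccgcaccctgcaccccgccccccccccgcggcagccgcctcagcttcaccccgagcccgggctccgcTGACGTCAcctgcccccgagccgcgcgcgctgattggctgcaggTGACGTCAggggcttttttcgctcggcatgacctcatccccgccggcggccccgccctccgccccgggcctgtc
DUSP10, upstream start: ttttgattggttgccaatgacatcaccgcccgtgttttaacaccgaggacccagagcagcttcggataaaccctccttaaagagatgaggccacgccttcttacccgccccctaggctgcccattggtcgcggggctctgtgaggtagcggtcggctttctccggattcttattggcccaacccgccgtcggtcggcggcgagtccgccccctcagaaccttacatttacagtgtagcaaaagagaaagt
DUSP10, downstream start: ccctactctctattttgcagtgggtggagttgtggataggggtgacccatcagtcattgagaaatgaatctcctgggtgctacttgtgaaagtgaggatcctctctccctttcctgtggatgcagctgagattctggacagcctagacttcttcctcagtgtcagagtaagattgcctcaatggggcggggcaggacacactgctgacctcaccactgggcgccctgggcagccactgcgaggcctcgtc

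DUSP1 held 4 matches to TGACG, at 172, 125, 122 and 111 bases before its start, and those at 125 and 122 overlap on opposite strands as a palindrome. DUSP8 also held 4 matches, which form 2 such palindromes. No other window of these genes held as many, so DUSP8 is not an independent comparison for DUSP1. At least 4 matches stood in 0.236% of the 35116 RefSeq windows of this length, and at least 1 match in 21.2% of them. Each palindrome counts as 2 matches. The bases G and C made up 74.4% of the DUSP1 window and 76.8% of the DUSP8 window, against a median of 58% over all windows. The shares are not adjusted for this content, so they do not show how rare such counts are among windows alike in it. Both windows of DUSP10 held 0 matches, as did those of DUSP2, DUSP6 and DUSP16, while SPRY4 and the most upstream of the 3 starts of SPRY2 held 1 each. Of the 10 genes 8 have entries in this table, and DUSP4 and DUSP5 are not shown. The other letters searched, on both strands, were TGANTCA (AP-1, in 6.57% of all windows), CCGGAAG (ETS factors, 8.52%), TATAAA (10.7%) and the serum response element (1.16%). Among the windows of these genes only TATAAA was found, once, 30 bases before the start of DUSP1. The matches are descriptions of letters, and factor binding was not measured.

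DUSP1 encodes a nuclear phosphatase of p38, JNK and ERK and is an immediate early gene of growth factors and stress. The control arrays held 0.66, 0.81 and 0.75, and the silenced-labelled arrays 0.02, -0.21 and -0.06. Every control array lay above every silenced-labelled array. DUSP1 was 1.77-fold lower (log2 difference -0.82, SE 0.0735, 95% interval -0.988 to -0.655, limma adjusted p = 0.00015), with group means of 0.74 ± 0.0731 and -0.08 ± 0.119 (SD, n = 3 each). The difference was larger in size than that of all but 1.05% of the genes measured.

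All 4 probe sets of DUSP1 passed the test over probe sets, with differences from -0.90 to -0.76. The fall of DUSP1 was called with each of the 6 arrays left out in turn, with log2 differences from -0.87 to -0.76 and limma adjusted p from 0.00032 to 0.0016. The probe set of DUSP1 that is open to cross-hybridisation by its design gave -0.80, within the range of the other 3.

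DUSP2, DUSP4 and DUSP5 encode the other inducible nuclear phosphatases of this family, and DUSP5 acts on ERK. DUSP4, measured by 1 probe set, lay at -0.09, 0 and 0.04 in control arrays and at 0.30, 0.18 and 0.25 in silenced-labelled arrays. All 3 silenced-labelled values were above all 3 control values. DUSP4 was 1.2-fold higher (log2 difference 0.26, SE 0.0606, 95% interval 0.124 to 0.399, limma adjusted p = 0.021), a change opposite in direction to that of DUSP1. The call of DUSP4 was lost in 4 of 6 fits with an array left out, namely control replicate 1 (limma adjusted p = 0.054), control replicate 2 (0.056), silenced replicate 1 (0.078) and silenced replicate 3 (0.077), with log2 differences between 0.22 and 0.27. It was also lost when each gene was given its most variable probe set (limma adjusted p = 0.071). With 1 probe set, DUSP4 kept its values and its difference in that setting, and only the values of other genes changed.

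DUSP5, also measured by 1 probe set, lay at -0.45, -0.11 and -0.26 in control arrays and at -0.0016, 0 and 0 in silenced-labelled arrays. The groups did not overlap, and 2 of the 3 silenced-labelled values were exactly the baseline. Its log2 difference of 0.27 (SE 0.0818, 95% interval 0.0887 to 0.46) was as large as that of DUSP4, but did not pass the test (limma adjusted p = 0.061). It passed without control replicate 2 (log2 difference 0.35, limma adjusted p = 0.023) and when the genes with the smallest range were left out before the adjustment (limma adjusted p = 0.039). That range spans the arrays of both groups and so takes up the group difference. The filter is therefore not independent of the test, and the pass under it adds no support for DUSP5. Exact zeros stood on each array in 17% to 21.1% of probe sets, and whether they narrowed the spread of DUSP5 was not tested.

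DUSP2 lay at 0.10, 0 and 0.05 in control arrays and at -0.11, 0.13 and 0 in silenced-labelled arrays. The groups overlapped fully. DUSP2 rests on 1 probe set, which is open to cross-hybridisation by its design. The log2 difference was -0.04 (95% interval -0.202 to 0.117, limma adjusted p = 0.8), so that changes beyond those bounds lie outside the interval. Of the 4 inducible nuclear phosphatases 1 thus fell, 1 rose and 2 did not pass, where 13.3% of all genes were called.

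**Figure D2:**
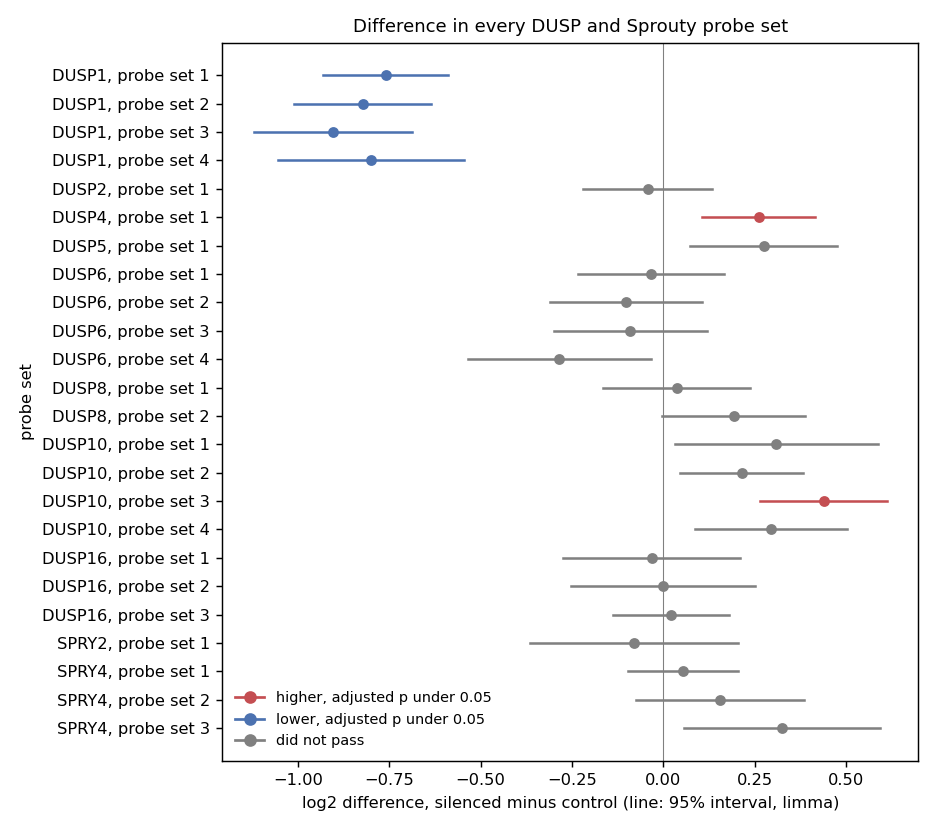
Log2 difference, silenced minus control (horizontal axis), of each of the 24 probe sets of the 10 genes (vertical axis), with its 95% interval from limma. The 4 probe sets of DUSP1 lie between -0.90 and -0.76, apart from all others, and 1 probe set each of DUSP4 and DUSP10 passed as higher.

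DUSP6 encodes the cytoplasmic phosphatase that is selective for ERK and is a common readout of ERK activity. Its values on the control arrays were -0.22, 0.08 and -0.02, and on the silenced-labelled arrays -0.22, -0.25 and -0.08. Control replicate 1 lay as low as the silenced-labelled arrays. The log2 difference of DUSP6 was -0.13 (SE 0.0853, 95% interval -0.321 to 0.066, limma adjusted p = 0.43), and none of its 4 probe sets passed (0 called, differences from -0.29 to -0.03). The probe set with the largest difference had an unadjusted limma p of 0.0304 and an adjusted p of 0.162. Without control replicate 1 the difference of the gene was -0.21 (limma adjusted p = 0.12).

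DUSP7 and DUSP9 encode the closest relatives of DUSP6, which also act on ERK in the cytoplasm. DUSP9 was 1.29-fold higher (log2 difference 0.37, SE 0.0654, limma adjusted p = 0.0062), going from -0.20, 0.0031 and -0.10 to 0.32, 0.24 and 0.24. All probe sets of DUSP9 are open to cross-hybridisation by their design. DUSP7, named after its values were seen, had a difference of 0.09 that did not pass (limma adjusted p = 0.49). The differences of DUSP6 and DUSP9 had opposite signs, and the difference between them was not tested.

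DUSP8, DUSP10 and DUSP16 encode phosphatases that act mainly on JNK and p38. DUSP10 lay at -0.33, -0.08 and -0.12 in control arrays and at 0.11, 0.09 and 0.22 in silenced-labelled arrays. The groups did not overlap, and control replicate 1 was the lowest of the 6 arrays. DUSP10 was 1.24-fold higher (log2 difference 0.31, SE 0.0767, 95% interval 0.14 to 0.488, limma adjusted p = 0.027).

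All 4 probe sets of DUSP10 were higher in every silenced-labelled array than in any control array, where 26.7% of all probe sets did not overlap. Their differences ran from 0.21 to 0.44, and 1 of them passed the test over probe sets (limma adjusted p = 0.0075). The 4 measure the same gene, so they are not independent of each other. The probe set with the smallest difference is open to cross-hybridisation by its design. The call of the gene was lost in 5 of 6 fits with an array left out. Leaving out control replicate 1 or 3 gave a limma adjusted p of 0.0505 or 0.052, and leaving out silenced replicate 1, 2 or 3 gave 0.056, 0.056 or 0.104, at log2 differences from 0.24 to 0.34. It was also lost with the median of the probe sets in place of the mean (limma adjusted p = 0.063).

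DUSP8 lay at -0.02, 0.03 and -0.04 in control arrays and at 0.09, 0.11 and 0.12 in silenced-labelled arrays. The groups did not overlap, yet its log2 difference of 0.11 (95% interval -0.0032 to 0.232) did not pass (limma adjusted p = 0.22). Its 2 probe sets each overlapped between the groups, with differences of 0.04 and 0.19. DUSP16 lay at -0.09, 0.20 and 0.03 in control arrays and at 0.14, -0.0085 and 0.0047 in silenced-labelled arrays, with a log2 difference of -0.0037 (95% interval -0.188 to 0.18, limma adjusted p = 0.99). Its 3 probe sets gave differences from -0.03 to 0.02. Of the 3 phosphatases of JNK and p38, 1 rose, where 7.14% of all genes were called higher, and 2 did not pass.

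**Figure D3:**
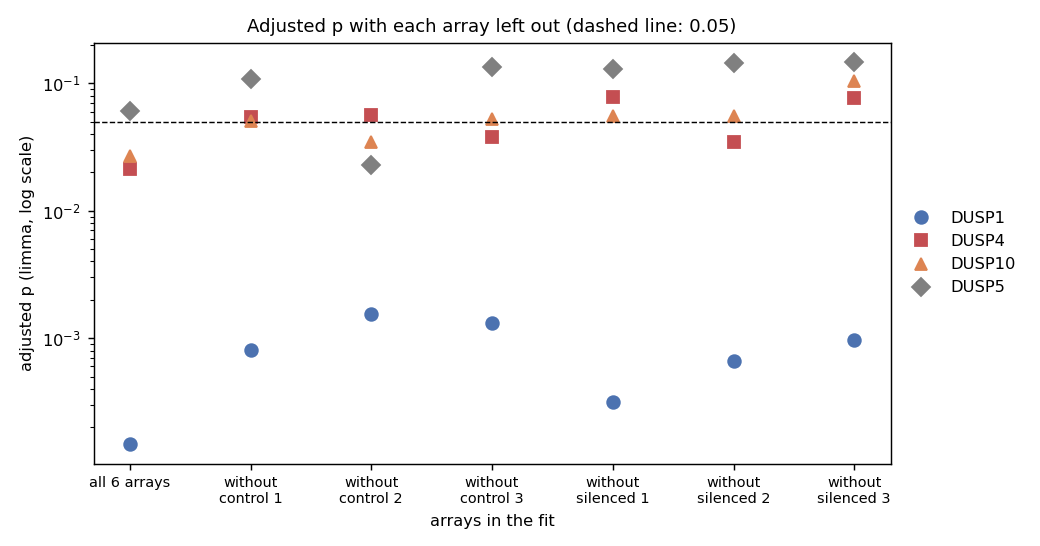
Adjusted p from limma (vertical axis, log scale) of DUSP1, DUSP4, DUSP10 and DUSP5 with all 6 arrays and with each array left out in turn (horizontal axis), where the dashed line marks 0.05. DUSP1 stays between 0.00032 and 0.0016 with an array left out, while DUSP4 passes in 2 of 6 such fits, DUSP10 in 1 and DUSP5 in 1.

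Neither Sprouty gene passed the test. SPRY4 lay at -0.26, -0.14 and -0.09 in control arrays and at 0.07, 0.0087 and -0.03 in silenced-labelled arrays. The groups did not overlap. The log2 difference of SPRY4 was 0.18 (SE 0.0633, 95% interval 0.0348 to 0.322, limma adjusted p = 0.11), and its 3 probe sets gave 0.05, 0.16 and 0.33, none of them past the threshold. The first of these probe sets held the exact baseline on 4 of the 6 arrays. All 3 are open to cross-hybridisation by their design, so SPRY4 has no value from specific probe sets.

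SPRY2, measured by 1 probe set, lay at -0.33, 0.09 and 0 in control arrays and at 0, -0.33 and -0.15 in silenced-labelled arrays. The lowest values of the groups were alike, and SPRY2 had the widest interval of the 10 genes, from -0.35 to 0.188 around a log2 difference of -0.08 (limma adjusted p = 0.77). Its sign turned without control replicate 2 (0.0044) and without silenced replicate 2 (0.003). SPRY1, named after its values were seen, had a difference of 0.17 that did not pass (limma adjusted p = 0.1).

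Over the probe sets, 6 of 24 were called, against 10.7% of all probe sets, with 2 higher (5.82% of all) and 4 lower (4.85%). All 4 lower ones belonged to DUSP1 and share its transcript, so they are not independent of each other. The groups did not overlap in 11 of the 24 probe sets, against 26.7% of all.

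The genes whose 6 values lay nearest to those of each called phosphatase were found by the root mean square difference over the 6 arrays, on the log2 scale, among all genes measured. For DUSP1 these were SHCBP1 (0.0514), FSTL3 (0.0631) and PROSER2 (0.0859). For DUSP4 they were ALDH1B1 (0.0228), CTSC (0.0284) and CAMSAP1 (0.0287), and for DUSP10 they were GLRX5 (0.0239), MOAP1 (0.035) and PECR (0.0378). SHCBP1 encodes a partner of the adaptor SHC1 and FSTL3 a binding protein of activin. The measure takes up the group difference itself, and all 6 arrays enter it. It also takes up where the baseline of each gene lies. A gene with the same differences between arrays but another baseline would lie farther away.

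The other dual-specificity phosphatases on the list, most of them atypical members with varied substrates, had 4 of 18 genes called (22.2%, against 13.3% of all genes), 3 higher and 1 lower. DUSP28 was 1.46-fold higher (log2 difference 0.55, SE 0.117, limma adjusted p = 0.015), DUSP9 rose as given above, and DUSP12 fell by 0.32 on the log2 scale (limma adjusted p = 0.011). The median difference of the list was -0.0045.

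Of the other Sprouty and SPRED genes and feedback regulators of receptors 3 of 17 were called (17.6%), 2 higher and 1 lower, with a median of 0.04. ERRFI1, which encodes an inhibitor of the EGF receptor and is itself induced by its signalling, was 1.49-fold lower (log2 difference -0.58, SE 0.0547, limma adjusted p = 2e-04). Its values went from 0.28, 0.32 and 0.26 to -0.28, -0.34 and -0.24. FLRT2, a membrane protein that interacts with FGF receptors, rose by 0.47 (limma adjusted p = 0.0017) but did not pass with specific probe sets only (limma adjusted p = 0.061). LRIG3 rose by 0.23 (limma adjusted p = 0.045) but was called in only 2 of 15 alternatives and not with any of the 6 arrays left out, at log2 differences from 0.18 to 0.27 and limma adjusted p from 0.059 to 0.149. ERRFI1 has no specific probe set and was not tested in that setting, in which 0 of the list's remaining genes were called by limma.

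Of the genes of the cascade from RAS to ERK 3 of 23 were called (13%, against 13.3% of all genes), 0 higher and 3 lower, with a median of 0.0068. RRAS, a small GTPase related to RAS, was 1.64-fold lower (log2 difference -0.72, SE 0.0723, limma adjusted p = 0.00029), from 0.56, 0.65 and 0.71 to -0.03, -0.21 and 0. MAP2K1, which encodes the kinase that activates ERK, fell by 0.27 on that scale (limma adjusted p = 0.018). MAP2K1 no longer passed when control replicate 2 (adjusted p = 0.069), control replicate 3 (0.066), silenced replicate 1 (0.063) or silenced replicate 2 (0.071) was left out, nor with its most variable probe set (0.051). RRAS2 fell by 0.22 (limma adjusted p = 0.037) and was called in 4 of 14 alternatives. Having no specific probe set, it was not tested with specific probe sets only. RRAS2 no longer passed when control replicate 2 (adjusted p = 0.104) or 3 (0.126) or silenced replicate 1 (0.0998), 2 (0.105) or 3 (0.101) was left out, nor with quantile normalisation (0.052). The count of called genes fell from 3 to 1 in each fit that left out control replicate 2, control replicate 3, silenced replicate 1 or silenced replicate 2. In those fits between 9.49% and 9.89% of all genes were called.

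Of the genes of the JNK and p38 cascades 4 of 29 were called (13.8%), 2 higher and 2 lower, with a median of -0.03. MAP3K20, a kinase activated by ribosome stress, was 1.72-fold lower (log2 difference -0.78, SE 0.0899, limma adjusted p = 6e-04). GADD45B, a stress-induced regulator of these cascades, fell by 0.50 on the log2 scale (limma adjusted p = 3e-04), and MAP3K4, a kinase that GADD45 proteins activate, rose by 0.49 (limma adjusted p = 0.00073).

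**Figure D4:**
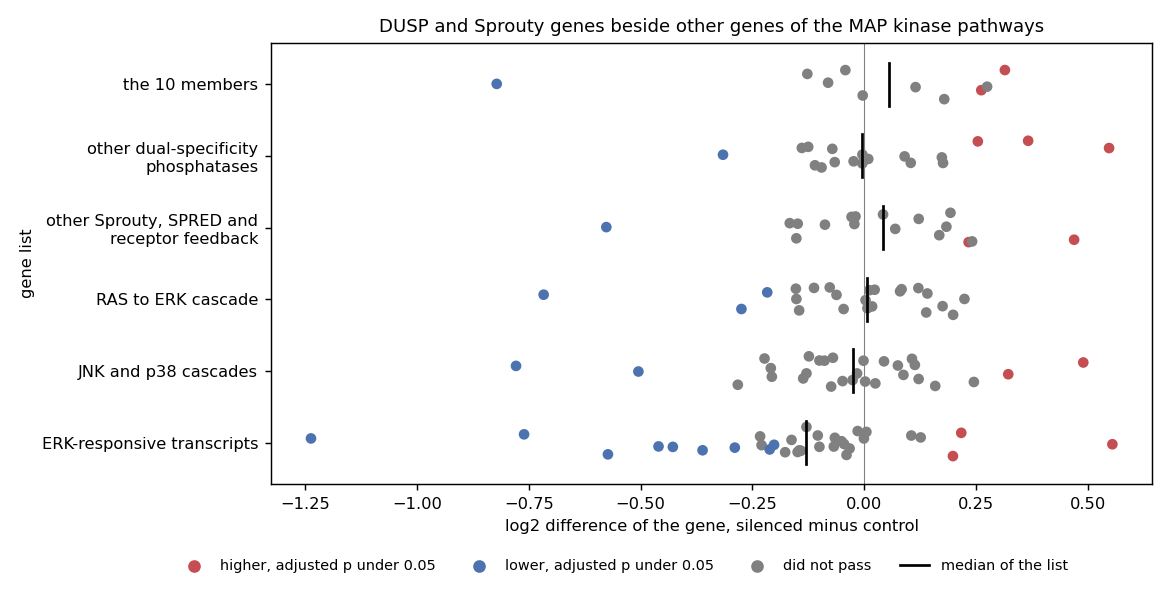
Log2 difference, silenced minus control (horizontal axis), of the 10 genes and of the measured genes of 5 lists of the MAP kinase pathways (vertical axis, with vertical scatter inside a row only to separate points), coloured by call. The ERK-responsive transcripts have the lowest median, -0.13, with 9 genes called lower and 3 higher.

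Transcripts listed as ERK-responsive, apart from the 10 genes, were called in 12 of 33 cases (36.4%, against 13.3% of all genes), 9 lower and 3 higher, with a median of -0.13. The list was chosen with earlier results of these data known, so its share is not independent of them. CCN1, an immediate early gene of the matrix, was 2.36-fold lower (log2 difference -1.24, SE 0.0815, limma adjusted p = 2.7e-05). IER3, an immediate early gene that regulates cell survival, fell by 0.76 on the log2 scale (limma adjusted p = 0.00019), from 0.52, 0.75 and 0.64 to -0.05, -0.17 and -0.16. JUNB, a component of the transcription factor AP-1, fell by 0.57 on that scale (limma adjusted p = 0.00079). These 3 are the largest changes of the list and do not stand for all of it. Its largest rise was 0.55, and 21 of the 33 genes did not pass. The falls of CCN1, IER3 and JUNB were called with each array left out. IER3 and JUNB each rest on 1 probe set that is open to cross-hybridisation by its design. They have no value from specific probe sets. The count of called genes of this list was 13 without control replicate 1, 5 without control replicate 2 and 7 without control replicate 3. It was 6, 7 and 6 when silenced replicates 1, 2 and 3 were left out in turn. Of all genes 12.6% were called without control replicate 1 and between 9.05% and 9.89% in the other fits.

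Markers of hepatocytes were called higher in 5 of 9 measured genes and lower in 0, where 7.14% of all genes were called higher and 6.19% lower. The other 4 did not pass, and differences over the list ran from -0.19 to 1.14. The 5 include AFP (log2 difference 0.70), which is an oncofetal hepatoma gene. The mean over this list lay between -0.27 and -0.18 in control arrays and between 0.11 and 0.12 in silenced-labelled arrays. Among markers of other cell types 1 of 8 genes of fibroblasts and stellate cells, 0 of 6 of endothelium and 1 of 6 of leukocytes were called by limma, both calls higher. The part of these shifts in the differences of the phosphatase and Sprouty genes was not tested. Centred values hold no level, so whether the markers were present or absent cannot be read from them.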

How the data were processed

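The authors deposited log2 values made with RMA, whose version is not given, per the submitters' processing notes. The values lie near 0 for each probe set, so each had been centred, and the log base is RMA's usual one and not stated otherwise. Each array had a median of 0. Differences between groups are free of the centring. The number of arrays, 3 a group, limits the precision. Of 49395 probe sets 102 were controls and were left out. Of the rest, 44988 carried 1 symbol, 1832 several and 2473 none here. A gene's value is the mean over probe sets that carry its symbol alone. A probe set that DUSP8 shares with GLUD1P3 was left out of DUSP8.

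Groups were compared with lmFit and eBayes of limma 3.58.1 under R 4.3.3, with group as the only term, with Benjamini-Hochberg adjustment over 18132 genes or 49293 probe sets. Alternatives were other summaries of probe sets, other scalings, a replicate block, a robust prior, a filter on the range over arrays, a fold threshold and leaving out each array. The procedure was tested on simulated data. The members and gene lists were chosen with earlier results of these data known. Of 133 entries on the 5 pathway lists 120 were measured and 13 are not analysed here. Named genes are the 10 members, KCNN4, the 3 largest changes of each pathway list among its called genes and the 3 genes nearest to each called member. AFP, DUSP7 and SPRY1 fall outside this rule and were named after their values were seen. Promoter windows are from RefSeq, GRCh38.p14.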

Additional observations from a re-analysis of the deposited data

Results flagged for a closer look

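The probe set that carries the symbols of both DUSP8 and the pseudogene GLUD1P3 entered no gene value, and it lay higher in the silenced-labelled arrays, with a log2 difference of 0.33 (SE 0.0814, limma adjusted p = 0.034 over probe sets). Its values were 0, 0.23 and -0.01 in control arrays and 0.37, 0.46 and 0.39 in silenced-labelled arrays, without overlap. The 2 probe sets with the symbol of DUSP8 alone gave 0.04 and 0.19 and did not pass. With the shared probe set in its mean, a choice made after seeing the data, DUSP8 had a log2 difference of 0.19 and did not pass (limma adjusted p = 0.065). Which of the transcripts the shared probe set measured was not tested.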

How the results depend on the processing

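Of 148 values of the 10 genes under an alternative, 125 kept their direction and their side of the threshold, 14 were no longer called, 2 became called and 7 changed sign. The sign changes were in genes that had not passed. They were DUSP2 without silenced replicate 1, DUSP16 with the median of probe sets (0.0425) and without control replicate 2 or silenced replicate 2 or 3, and SPRY2 without control replicate 2 or silenced replicate 2. With an array left out these genes ranged from -0.103 to 0.0144 (DUSP2), from -0.0724 to 0.072 (DUSP16) and from -0.207 to 0.0044 (SPRY2). KCNN4 ranged from -0.0445 to 0.0548 with an array left out and was 0.021 with the most variable probe set and 0.0014 with quantile normalisation. The causes were not tested.

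Leaving out arrays gave 1 to 3 called members, 1641 to 2289 called genes and 3252 to 4592 called probe sets, with 5 to 7 of the members' own. Called genes numbered 3 to 4 among other dual-specificity phosphatases, 2 to 3 among Sprouty, SPRED and receptor feedback genes, 1 to 3 in the RAS to ERK cascade, 4 to 5 in the JNK and p38 cascades and 5 to 13 among ERK-responsive transcripts. Such fits have fewer arrays. A fold of at least 1.5, which by construction removes calls, left 456 genes, 1538 probe sets, 1 member, 0 other phosphatases, 0 feedback genes, 1 gene each of the ERK and of the JNK and p38 cascades and 2 ERK-responsive transcripts. With the most variable probe set 5 feedback genes and 7 of the JNK and p38 cascades were called, and with specific probe sets only 0 feedback genes, in a fit that lacked ERRFI1, which has no such probe set.

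Replicate numbers gave no sign of pairing the arrays, though 3 arrays a group are too few to exclude it. Deviations from the group means correlated with r of -0.096, -0.0694 and -0.0397 between same-numbered arrays, and no control array correlated best with its own number. The highest r was 0.373 for control replicate 1 with silenced replicate 2, 0.381 for 2 with 3 and 0.381 for 3 with 1. A block on these other pairs was not fitted. With the replicate block 2065 genes were called in place of 2418 and 2 members in place of 3, DUSP4 having a limma adjusted p of 0.051. KCNN4 had the same difference with the block, -0.00033. Signal over background is unknown in centred values.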
